A study of Rattus norvegicus with 4 samples.

Results

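Cytosolic ribosomal protein genes were described in 4 samples of glomeruli, the filtering tufts of the kidney, from male Wistar rats. The genes were chosen by name alone: every listed protein-coding row whose symbol starts with Rpl or Rps and a number, or is Rplp0, Rplp1, Rplp2 or Rpsa, without the Rps6k kinases. This rule gave 91 rows of the 13261 genes used. They carry 81 symbols, since 8 symbols stand on more than 1 row (18 rows in all). None of the rows is named Rpl10a, Rpl22, Rpl23a, Rps14, Rps19, Rps26 or Rps29, so they are not a full list of the ribosome's proteins. Of the 91 rows, 54 belong by name to the large and 37 to the small ribosomal subunit, and 65 form a core without paralogs, shared symbols or Rps19bp1, which encodes a protein that binds Rps19 and is not a subunit. The copies Rps18l1 and Rps15al4, which the paralog list did not name, stayed in the core. CPM are reads scaled to the same total in each sample. A log2 CPM of at least 1 in every animal was found for 90 of the 91 rows, the exception being Rpl10l, and for 12866 of all 13261 genes.

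The rats weighed about 150 to 175 g and had received ADR, that is Adriamycin or doxorubicin, by vein. This anthracycline is given to rodents to injure podocytes, the epithelial cells of the filter. They form a single group without a genotype change. Their age, and which of the named harvest days (11 or 21) applied, were not given in the sources used here; control rats and those of the accompanying puromycin aminonucleoside experiment were not analysed here. Each of the 4 samples is called a replicate below. The labels do not say in so many words that each came from a separate rat, so the spread between samples, called animals here, may be partly technical.

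Polyadenylated RNA from sieved glomeruli was sequenced, and replicates 1 to 4 carried 13566962, 16207027, 15348629 and 15244063 reads in the listed genes. All 8 podocyte markers were listed, with summed levels between 5582 and 9869 CPM. The 7 proximal tubule markers summed to 5405, 3992, 2714 and 4387 CPM, so tubular RNA was present in every sample. Reads in the 13 mitochondrially encoded genes made up 7.46%, 12.5%, 9.34% and 7.56% of the total. In bulk tissue, fewer cells of a type and less RNA per cell cannot be told apart.

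Ribosomal proteins are built with ribosomal RNA into the small subunit, which reads the messenger RNA, and the large subunit, which joins amino acids. Because the particle needs nearly all of them in equal number, their genes are usually expressed together. Most of their messenger RNAs start with a terminal oligopyrimidine (TOP) tract, a C followed by further C and T (U in RNA), through which the mTOR kinase and the binding protein Larp1 control their translation and stability. Mammalian genomes also hold many processed pseudogenes of ribosomal protein genes, copies of the spliced messenger RNA. RefSeq (assembly GRCr8) lists 871 such pseudogene symbols in the rat, with 34 for Rps2, 29 for Rps27a, 27 for Rpl9 and 25 for Rpsa. The deposited table lists no row with a ribosomal protein name and another biotype than protein-coding.

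The start of the transcript is the sequence these genes are known to share and that the name rule did not use. RefSeq promoters of GRCr8 were matched by symbol for 58 of the 91 rows. A tract was a C followed by at least 4 pyrimidines, its first C lying within 10 bases on either side of the annotated start, read on the transcript's strand only. Such a tract was found in 41 of the 58 (70.7%), with a median length of 10 bases. Of the members described below as departing from the others, 7 of the 10 matched had such a tract (70.0%). It was found in 10 of the 15 matched genes of a list of elongation factors and other TOP messenger RNAs (66.7%). In mitochondrial ribosomal protein genes, whose products serve the organelle's own ribosome, 19 of 57 had it (33.3%), and the share over all RefSeq promoters of the same length was 27.8%. The windows below cover 20 bases before and the first 10 bases of the transcript, with the tract in capitals. They show members with a tract at the start (Rpl10, Rpl37a, Rps23, Rplp0), members described below as departing from the others that have one (Rpl31, Rpl39), and departing (Rplp2, Rpl41) and other (Rpsa) members without one.
Rpl10, chrX:157205830-157205859, plus strand: atgcgcaggcgtgggagcgtCTCTTTTCCT
Rpl37a, chr9:81748071-81748100, plus strand: accgcgcatgcccgttgcgtCTCTTCCTCT
Rps23, chr2:23814497-23814526, plus strand: ccttgtgggtccttcctgCCTCTCTTCTCT
Rplp0, chr12:46718381-46718410, minus strand: ctggtgaccgcaccgcaCTTCTCTCgccag
Rpl31, chr9:49143091-49143120, plus strand: ccatcccacaatccctcgcgCCTTTCCTTT
Rpl39, chrX:121195887-121195916, minus strand: cagcgtcttctaatcgcgttCTTCCggcct
Rplp2, chr1:205975901-205975930, plus strand: atcttcctttcgccgccggacgccgccgag
Rpl41, chr7:1563488-1563517, minus strand: gaaggggcggctcggaagtgacgacaccaa
Rpsa, chr8:128728859-128728888, plus strand: cccgtcctttccgcgctaccctggaacggg
In Rpl10, Rpl37a, Rpl31 and Rps23 the pyrimidine run goes on beyond the last base shown. The window of Rplp2 holds a pyrimidine run further upstream than the 10 bases searched, as does that of Rpsa. The annotated start of a RefSeq gene is a single position, and no letter here was measured in these rats. A match is a description of the window, and its absence says only that the letters are not in it.

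Reads in the 91 rows made up 1.45% of all listed reads in replicate 1, 1.79% in replicate 2, 1.73% in replicate 3 and 1.60% in replicate 4. The 95% Wilson intervals, which cover counting error only, ran from 1.44 to 1.45%, 1.79 to 1.80%, 1.72 to 1.73% and 1.60 to 1.61%. None of these intervals overlapped another, so the animals differed by more than counting error in the share of reads on these 91 rows. The mean was 1.64 ± 0.15% (SD, n = 4), and the highest animal stood 1.24-fold above the lowest. The order of the animals (2, 3, 4, 1) was also that of the total reads, and replicate 2 had the highest share of mitochondrially encoded reads; the part of either in the result was not tested. With the mitochondrially encoded reads taken out of the total, the share was 1.81 ± 0.21% and the ratio of highest to lowest animal 1.31.

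By reads, without regard to transcript length, the members spanned from 497 ± 80.6 CPM for Rpsa to 2.04 CPM for Rpl10l. No transcript lengths were used here, so these values rank reads and not molecules. The other members with the most reads were Rplp0 (494 ± 59.2 CPM), Rpl3 (455 ± 46.5 CPM), Rps2 (452 ± 22.8 CPM), Rpl41 (449 ± 93.2 CPM) and Rps16 (446 ± 17.7 CPM). The order of these 6 members was not tested. Rpsa is the small-subunit protein that also gives rise to a laminin receptor, and Rpl3 lies near the peptidyl transferase centre. At the low end followed Rpl38 with 2.99 CPM, Rps15al4 with 48 to 86 reads, the second row of Rpl35al1 with 5.97 CPM, Rpl36al with 6.68 CPM and Rps4y2 with 7.46 CPM. Rpl38 is an ordinary subunit of every ribosome, as are Rpl35a (8.88 CPM), Rpl39 (9.92 CPM) and Rpl9 (11.8 CPM). How multiply mapped reads were counted is not given, so the levels of these rows are uncertain. RefSeq lists 27 pseudogenes for Rpl9, 12 for Rpl39 and 7 for Rpl38, but also 34 for Rps2 and 25 for Rpsa. The part of such copies in the levels was not tested. Rpl10l is the retrocopy of Rpl10 known for its use in the testis. Counting precision followed the level: 64 of the rows had at least 1000 reads in every animal, and 3 had under 100 in every animal.

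**Figure D1:**
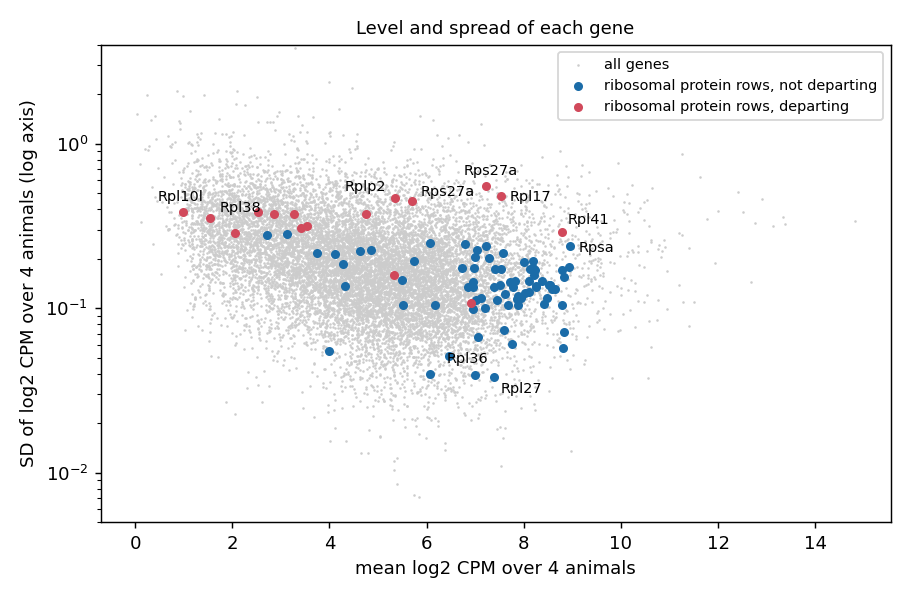
Mean log2 CPM over the 4 animals (horizontal) and SD of log2 CPM over the animals (vertical, log axis) for all 13261 genes (grey) and the 91 ribosomal protein rows (blue, and red for the 16 that depart from the shared movement). Most ribosomal protein rows lie at high levels with SDs near their median of 0.15, while Rpl17 and a row of Rps27a have SDs of 0.48 and 0.55 at similar levels.

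The members moved together between animals. For each gene the deviation is its log2 CPM in an animal minus its mean over the 4 animals. The median deviation of the 91 rows was -0.18 in replicate 1, 0.12 in replicate 2, 0.08 in replicate 3 and -0.01 in replicate 4, against -0.02, -0.02, 0.03 and 0.02 over all genes. From the lowest to the highest animal the members' median spanned 0.30, and that of all genes 0.05. For the 3755 genes whose mean lies between the members' own quartiles of level, the span was 0.06. Large and small subunit gave nearly the same medians in the 4 animals, -0.18, 0.12, 0.08 and -0.01 for the large and -0.18, 0.12, 0.09 and -0.01 for the small. The signs were the same under every scaling tried, with replicate 1 between -0.16 and -0.21 and replicate 2 between 0.12 and 0.18. Without replicate 1 the span of the members' median was 0.14, beside 0.05 for all genes.

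Of the 91 rows, 74 were lowest in replicate 1, where 35.0% of all genes were lowest. Replicate 2 was the highest animal for 57 rows (21.3% of all genes). Replicate 3 was the highest for 21 rows (29.6% of all genes) and the lowest for 2 (19.6% of all genes). A lowest value in replicate 1 together with a highest in replicate 2 was seen in 50 rows, against 12.2% of all genes. Replicate 2 exceeded replicate 1 in 83 rows (49.2% of all genes), by a median of 0.30 on the log2 scale, or 1.23-fold. These counts describe a single set of 4 samples, and because members share the libraries they are not independent of each other. Among members with a start-site tract, 36 of 41 were lowest in replicate 1, and among those with a promoter but no tract, 14 of 17, with median deviations in replicate 1 of -0.18 and -0.22.

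**Figure D2:**
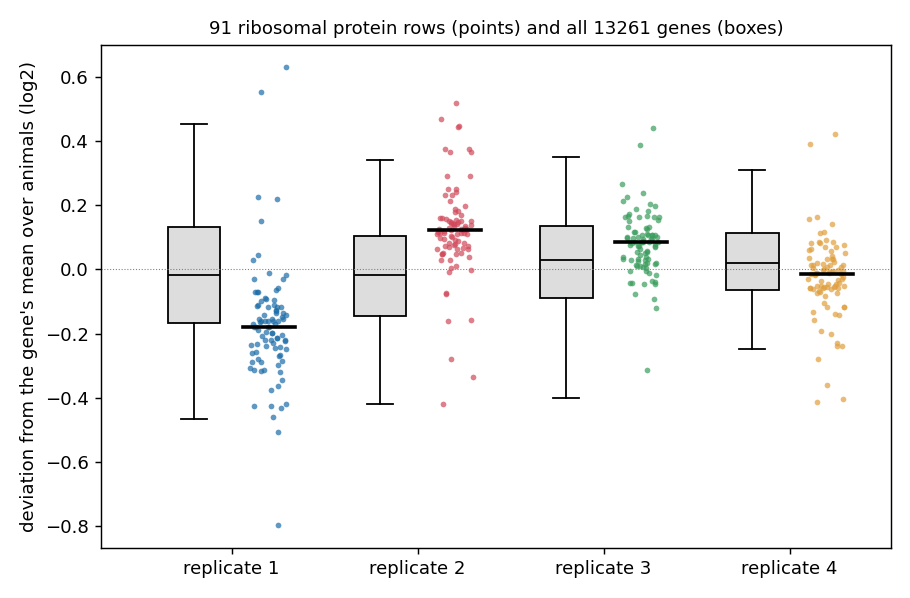
Deviation of log2 CPM from the gene's mean over the 4 animals, by animal: grey boxes show all 13261 genes (quartiles and median, whiskers from the 5th to the 95th percentile), points the 91 ribosomal protein rows, and black bars their median. The bars stand at -0.18, 0.12, 0.08 and -0.01, while the medians of all genes stay within 0.03 of 0.

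Differences between animals exceeded counting error for most members, but were not large beside those of other genes. By a chi-square test of the recovered reads against Poisson counting, 82 of 91 rows passed a Benjamini-Hochberg adjusted p of 0.05, against 69.5% of all genes; at the members' own level the share over other genes was 88.2%. The median SD of log2 CPM was 0.15 for the members, 0.18 for all genes and 0.14 for genes between the members' quartiles of level. With limma, which set each gene's variance against the trend of genes of like abundance, 0 of 91 rows passed the adjusted threshold (0% of all genes). At an unadjusted p under 0.05, 4 rows passed (5.44% of all genes): both rows of Rps27a, Rpl17 and Rplp2. The smallest adjusted p of a member by limma was 0.913. Without replicate 1 the members' median SD was 0.09.

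Among the ribosomal stalk proteins, which recruit the elongation factors, Rplp0 and Rplp1 kept to the shared movement. Rplp0, the stalk's base, had log2 CPM of 8.70, 9.11, 9.02 and 8.93 in replicates 1 to 4. Rplp1 had 7.90, 8.25, 8.15 and 8.14. Replicate 1 was lowest and replicate 2 highest for both. Rplp2, the partner of Rplp1 in the stalk's dimers, had 4.93, 5.87, 5.62 and 4.99, so replicates 1 and 4 formed a low pair and replicates 2 and 3 a high one. From 412, 950, 755 and 485 reads, its CPM in the highest animal was 1.93-fold that in the lowest.

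Rpl5 and Rpl11 join the 5S ribosomal RNA in a particle that, when ribosome assembly is disturbed, binds Mdm2, the inhibitor of p53. Rpl5 had log2 CPM of 8.40, 8.70, 8.66 and 8.58, and Rpl11 had 7.78, 8.01, 7.89 and 7.82. Both were lowest in replicate 1 and highest in replicate 2. Rpl5 followed the members' median closely, with an SD of 0.008 around it. Rps27l, a paralog of Rps27 known as a p53 target, had 5.46, 5.87, 5.79 and 5.86 and was likewise lowest in replicate 1, while Rps27 itself had 6.94, 6.94, 6.99 and 7.18 and was highest in replicate 4.

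Around the exit of the tunnel through which the new protein leaves the large subunit, the members did not all move alike. Rpl19 (7.85, 8.11, 8.05, 8.11), Rpl26 (7.87, 8.22, 8.23, 8.18) and Rpl35 (7.75, 8.01, 7.88, 7.82) had log2 CPM that were lowest in replicate 1. Rpl17, at the rim of the exit, had 7.09, 7.97, 7.91 and 7.12 from 1851, 4069, 3701 and 2120 reads. Replicates 1 and 4 lay together, below replicates 2 and 3, the same pairing as in Rplp2, and the highest CPM was 1.84-fold the lowest. Rpl31, also at the exit, had 7.06, 6.90, 6.82 and 6.85 and was highest in replicate 1, the opposite of the shared movement. Rpl39, a short protein of the tunnel wall, had 2.82, 3.72, 3.36 and 3.20 from only 95 to 213 reads.

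On the small subunit, 3 of 4 described proteins of the decoding site and the entry channel of the messenger RNA were lowest in replicate 1, and Rps2 was not. Rps23, which lies at the decoding centre, had log2 CPM of 8.36, 8.65, 8.62 and 8.47. Rps3, at the channel's entry, had 8.32, 8.56, 8.56 and 8.48, and Rps15 had 8.20, 8.51, 8.48 and 8.32. Rps6, the substrate of the S6 kinases, spread more, with 6.45, 7.03, 6.82 and 6.88. Rps2, the fourth and also at the entry channel, had 8.79, 8.92, 8.82 and 8.75, with replicate 4 lowest. Rpsa had 8.66, 9.19, 9.08 and 8.84, and no value of the other animals fell to that of replicate 1.

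The smallest SDs were those of Rpl27 and Rpl36 (0.04 each), the second Rpl21 row (ENSRNOG00000029410, 0.04) and the second Rps4x row (ENSRNOG00000029574, 0.05), and these were within counting error. The other rows within it were Rps13, a further Rpl21 row (ENSRNOG00000049848), Rps15al4, Rpl38 and Rpl10l, 9 in all. Rpl27 had log2 CPM of 7.35, 7.43, 7.39 and 7.35 from 2211 to 2794 reads, and a difference between animals was not detectable at this depth. Rpl36 had 6.99, 7.05, 6.96 and 7.03, with no animal apart.

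A row was called departing when, after subtracting the members' median deviation in each animal, its SD exceeded 0.18, the median SD of all genes. This held for 16 of 91 rows. Around their own median deviation 49.2% of all genes exceeded it, a share near that which the median sets by construction. Among the genes between the members' quartiles of level the share was 35.8%. The other 75 rows did not depart, and the median residual SD of all members was 0.08. Of the departing rows, 8 belong to the core and 8 are paralogs or rows of a shared symbol, and 11 are of the large and 5 of the small subunit. Just inside the threshold stood Rpl41 and Rpl9 (0.18 and 0.19), and just outside it Rps27 and Rpl35a (0.18 and 0.17). Without replicate 4 the count was 11, and without replicate 3 it was 22.

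Of the 8 core rows among the 16, 7 had their highest value in replicate 2, as did 47 of all 65 core rows. Rpl17 and Rplp2 (residual SDs 0.37 and 0.35) were described above. Rpl41, which encodes one of the shortest known proteins, had log2 CPM of 8.52, 9.15, 8.89 and 8.59 from 4980, 9233, 7277 and 5864 reads, so here too replicates 1 and 4 were the lower pair. Rpl9 had 3.16, 3.83, 3.76 and 3.40, and Rpl38, with 33 to 61 reads, had 1.39, 1.92, 1.75 and 1.14. The low reads of Rpl9, Rpl38, Rpl39 and Rps15al4 leave wide counting error, and of these Rpl38 and Rps15al4 did not vary beyond it. The remaining core row, Rpl31, had its highest value in replicate 1.

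Among members outside the core, Rpl7l1, a paralog of Rpl7 that works in ribosome assembly, had log2 CPM of 5.56, 5.18, 5.29 and 5.32, highest in replicate 1. Rpl7 had 8.47, 8.78, 8.68 and 8.66, lowest there. Rps4y2, a member of the Rps4 family, had 2.36, 2.89, 2.95 and 3.25 from 69 to 145 reads and was highest in replicate 4. Rpl10l had 31, 25, 24 and 40 reads, which did not vary beyond counting error, while Rpl10 had 2630, 3862, 3619 and 3626. Rpl22l1 (4.32, 4.73, 4.84, 4.62) and Rps19bp1 (4.57, 5.02, 5.05, 4.81) were lowest in replicate 1 and did not depart. In all, 5 rows were highest in replicate 1, against 27.7% of all genes: Rpl31, Rpl7l1, the Rpl21 row ENSRNOG00000029410, the Rps27a row ENSRNOG00000034246 and the Rpl35al1 row ENSRNOG00000049536.

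**Figure D3:**
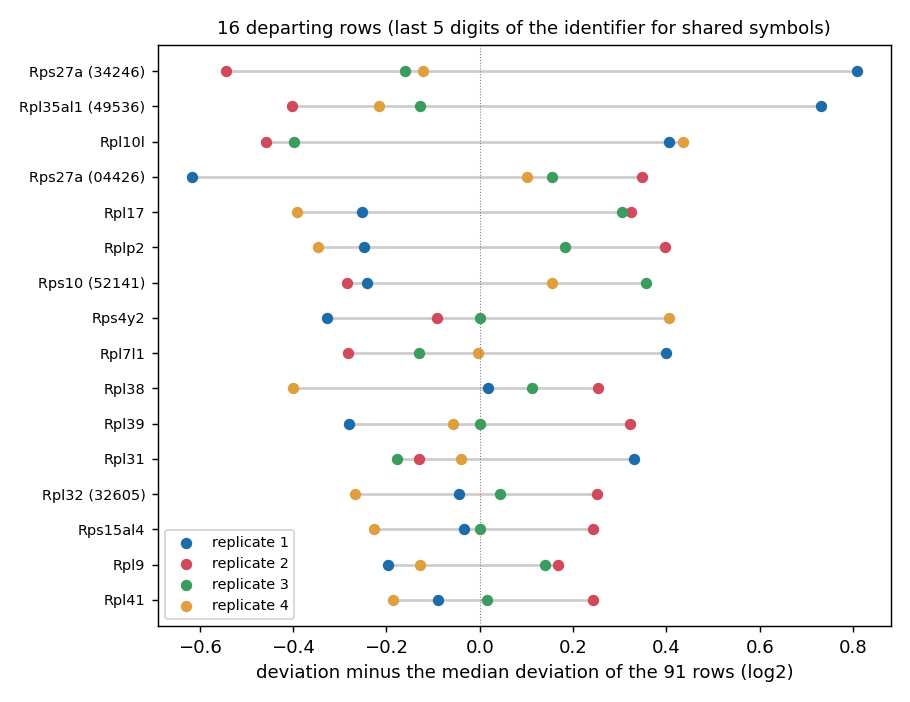
Residual deviation (log2), after subtracting the median deviation of the 91 rows in each animal, of the 16 departing rows in the 4 animals, ordered by the SD of the residual. The Rps27a rows lie at opposite ends for replicate 1, and Rpl17, Rplp2 and Rpl41 have replicates 1 and 4 on the left and replicates 2 and 3 on the right.

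The largest residual SDs, 0.57 and 0.50, were those of a row of Rps27a and a row of Rpl35al1, symbols that stand on more than 1 row, and the rows of Rps27a went opposite ways. Rps27a encodes ubiquitin joined to a small-subunit protein. Its row ENSRNOG00000004426 had 1160, 3334, 2692 and 2405 reads, lowest in replicate 1, and its row ENSRNOG00000034246 had 1090, 629, 756 and 721, highest in replicate 1. In replicate 1 the first row thus held 51.6% (49.5 to 53.6%, 95% Wilson) of the symbol's reads, compared with 84.1% in replicate 2 (83.0 to 85.2%), 78.1% in replicate 3 and 76.9% in replicate 4. Summed over both rows, Rps27a had 2250, 3963, 3448 and 3126 reads and a residual SD of 0.11, below the threshold. Reads of near-identical copies can be assigned to either row. How the authors' counting treated them is not given in the sources used here, so the level of each single row is uncertain. How alike both Rps27a rows are in sequence, and the part of read assignment in their division, were not tested.

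Rpl35al1 showed the same division at lower counts. Its row ENSRNOG00000047557 held 62.0% of the symbol's reads in replicate 1 (56.5 to 67.3%) and 79.1%, 77.5% and 78.8% in replicates 2 to 4. The row ENSRNOG00000049536 had 115, 77, 86 and 75 reads. The interval of replicate 1 did not reach that of any other animal. Summed, Rpl35al1 had a residual SD of 0.11.

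For Rps10 the division separated other animals: the row ENSRNOG00000000490 held 84.8% (replicate 1) and 85.9% (replicate 2) of the reads, beside 78.4% (replicate 3) and 79.6% (replicate 4). For Rpl7a, the main row held between 52.1% and 52.5% in replicates 1 to 3 and 58.2% in replicate 4. In the other 4 symbols the division differed less between animals, with the main row at 92.1 to 94.3% for Rpl32, 54.4 to 58.8% for Rpl21 (on 4 rows), 53.9 to 57.0% for Rps19l2 and 76.1 to 78.6% for Rps4x. With the rows of each symbol summed, none of the 8 symbols departed, and the count of departing members was 11 of 81.

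**Figure D4:**
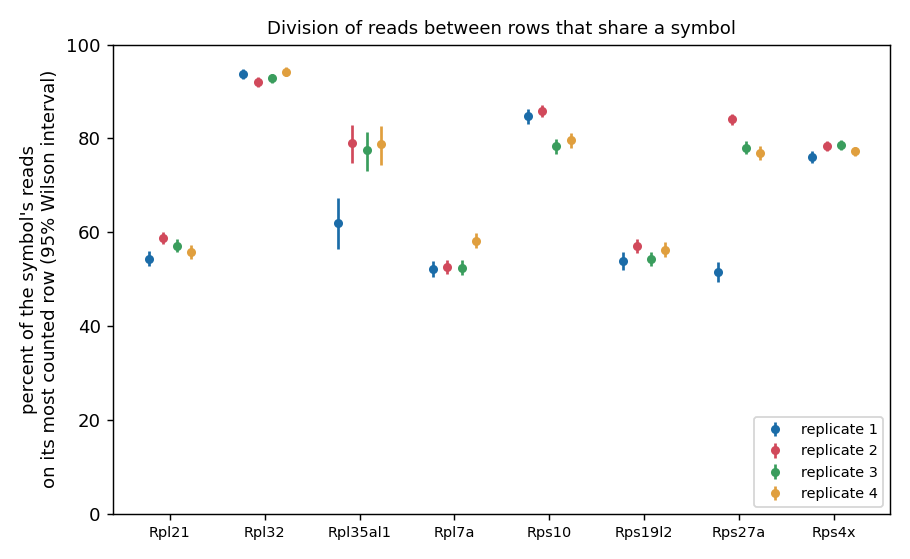
Percent of a symbol's reads on its most counted row, for the 8 ribosomal protein symbols on more than 1 row, in each of the 4 animals; bars are 95% Wilson intervals, which cover counting error only. Rps27a and Rpl35al1 stand lower in replicate 1 (51.6% and 62.0%) than in the other animals.

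Rack1 and Fau, which encode ribosomal proteins, lie outside the name rule. Rack1 is a scaffold on the small subunit and had log2 CPM of 7.88, 8.22, 8.19 and 8.13. Fau, which encodes a ubiquitin-like protein joined to a small-subunit protein, had 2.93, 3.80, 3.78 and 3.34 from 103 to 226 reads. Both were lowest in replicate 1 and highest in replicate 2, and Fau spread more widely, with an SD of 0.42 against 0.16 for Rack1.

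Among other genes of translation, 19 of 24 named elongation factors and other TOP messenger RNAs were matched, and their median deviations were -0.13, 0.08, 0.05 and -0.03, with 13 of 19 lowest in replicate 1 (35.0% of all genes). Eif3k, a subunit of the initiation factor eIF3, had log2 CPM of 5.87, 6.38, 6.27 and 6.11. Eef1a1, which brings aminoacyl-tRNA to the ribosome, had 11.36, 11.33, 11.42 and 11.51 and was lowest in replicate 2. The list of 38 ribosome biogenesis genes had -0.06, 0.09, 0.02 and -0.03, and 20 mTOR pathway genes had -0.01, -0.03, 0.05 and 0.03. In the mTOR list Myc, a transcription factor that drives ribosomal protein genes, had 91, 182, 164 and 168 reads, lowest in replicate 1, and Eif4g1, the scaffold of cap binding, was highest in replicate 1 at 8.40, 8.09, 8.27 and 8.19. With limma, 0 genes of the TOP, biogenesis and mTOR lists passed the adjusted threshold (0% of all genes). At an unadjusted p under 0.05 the count was also 0 (5.44% of all genes). By the chi-square test against counting, 18 of 19 TOP, 22 of 38 biogenesis and 14 of 20 mTOR genes passed, beside 69.5% of all genes.

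Other multi-subunit machines had smaller spans of their median: 0.08 for 74 mitochondrial ribosomal proteins, 0.16 for 75 nuclear oxidative phosphorylation subunits and 0.06 for 38 proteasome subunits, beside 0.30 for the cytosolic ribosomal proteins. The oxidative phosphorylation genes were lowest in replicate 3 (-0.11). These spans are descriptions, and their differences were not tested.

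Cell type markers also differed between these animals, in part in the same order. All 8 podocyte markers were above their mean in replicate 1 and below it in replicate 2, with summed levels of 9869, 5582, 7354 and 8863 CPM, the reverse of the order of the ribosomal proteins. The 6 immune markers had median deviations of -0.40, 0.01, 0.25 and -0.01 (summed 1024, 1309, 1279 and 1199 CPM) and the 3 erythroid genes -0.42, -0.08, 0.50 and -0.03. The 6 matched of 7 endothelial markers had -0.18, 0.04, 0.22 and -0.06 (summed 4836, 5340, 6337 and 5231 CPM). Median deviations of 7 proximal tubule markers were 0.47, 0.01, -0.60 and 0.06. Those of 6 mesangial markers were 0.09, -0.26, -0.00 and 0.19, but their summed levels (1773, 1840, 1910 and 2224 CPM) were lowest in replicate 1. The 5 distal nephron markers had -0.08, -0.06, 0.05 and -0.02, but their summed levels (628, 474, 575 and 540 CPM) were highest in replicate 1. Members of these 2 lists thus did not all move alike. No matched marker was at 0 reads in any sample, but neither was any other listed gene, the lowest count being 2 reads. The part of cell composition in the shared movement of the ribosomal proteins was not tested.

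**Figure D5:**
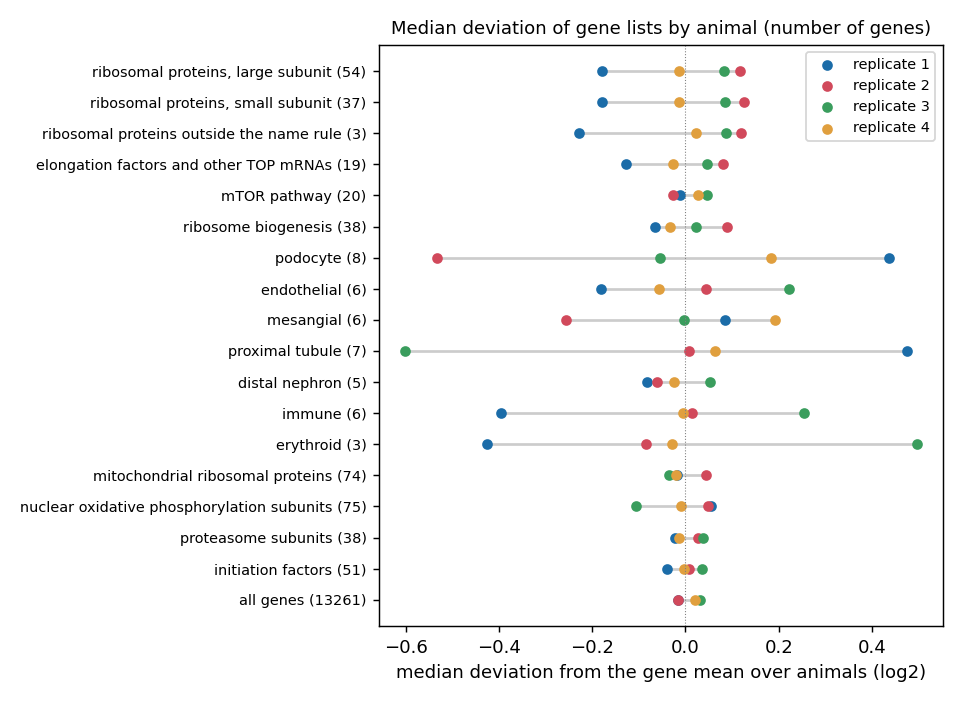
Median deviation (log2) from the gene mean over the 4 animals for the ribosomal proteins of either subunit, other translation lists, subunit families, cell type markers and all genes, with 1 point per animal and the number of genes in parentheses. Both ribosomal subunits run from -0.18 in replicate 1 to 0.12 in replicate 2, and the podocyte markers from -0.53 in replicate 2 to 0.44 in replicate 1.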

How the data were processed

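The deposited table holds log2 values of 1 row per Ensembl gene, made by the authors, per the submitters' processing notes, with HISAT2, featureCounts (Subread), limma and build Rnor_6.0; their settings, and the treatment of strand and multiply mapped reads, are not given in the sources used here. Per the labels, stranded libraries were made from 200 ng of RNA of integrity number above 7 and read as 150-base pairs; the design text gives 2 lanes. From the values, the unit is log2 CPM with 0.5 reads added: 100% of values gave whole reads within 0.01. Of 13265 rows, 4 with displaced values were left out.

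Spread was tested against Poisson counting (chi-square, 3 degrees of freedom) and with limma 3.58.1 (R 4.3.3; intercept only, F test of the variance against the abundance trend), with Benjamini-Hochberg adjustment over 13261 genes. A count model was not used as the main test because the unit is log2. In simulated data the limma test called 28% of genes changed 2-fold and 100% of those changed 4-fold in 1 replicate. It called 0 of 13061 unchanged genes. Every simulated gene had the same relative spread between animals, and genes with few reads were not changed. Real genes differ in spread, so these shares do not give the power of the limma test here. In a second simulation, 10 members changed 2-fold in 1 replicate were recovered at 100%, with 1.3% of 77 others past the threshold. Members with few reads were left out of these counts, so they set no bound on false departures here.

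A planned comparison of large and small subunit levels per coding length was not made, since no coding lengths were used here. Members and gene lists were chosen with earlier results of these data known. Named were the 6 members with the highest and lowest mean CPM, the 6 largest and 4 smallest SDs, the 6 largest residual SDs, paralogs and their parents, the stalk proteins, Rpsa, and the highest or lowest gene of a list; members outside this rule were named for their role, after their values were seen. Alternatives were other scalings (TMM, median of ratios, totals without mitochondrial or ribosomal protein genes), log2(CPM + 1), a filter, core members, a robust prior and leaving out each replicate. Some genes that this rule selects are not reported here.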

Additional observations from a re-analysis of the deposited data

Results flagged for a closer look

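In 4 members the lowest animal lay further from the others than Dixon's test allows at the 95% level for 4 samples, and in each case that animal was replicate 1. Rpl10 had log2 CPM of 7.60 in replicate 1 against 7.88 to 7.90 in the others, a gap that made up 0.949 of the whole range. The gap was 0.917 of the range for Rpl35a (2.71 against 3.24 to 3.29), 0.895 for Rps15a (6.74 against 7.02 to 7.05) and 0.872 for Rpl26 (7.87 against 8.18 to 8.23). The examined values numbered 108, including all 91 members. Chance alone passes about 1 in 20 groups, and the share of members past the value, 4.40%, was close to the 5.08% of all genes.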

How the results depend on the processing

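The shared movement rests in part on replicate 1: leaving out each replicate in turn, the span of the members' median deviation ran from 0.14 (without replicate 1) to 0.31, the median SD from 0.09 (without replicate 1) to 0.17, the rows beyond counting error from 62 (without replicate 1, 55.2% of all genes) to 84 (without replicate 3, 61.3% of all genes), the departing rows from 11 (without replicate 4) to 22 (without replicate 3), the share of reads from 1.59 to 1.71%, and the rows past limma's adjusted threshold stayed at 0. The share of reads was 1.81% with mitochondrially encoded genes out of the total and 1.45% for the core members. Departing rows numbered 8 among core members, by fewer rows, and 10 at 1.5 times the threshold. Rows lowest in replicate 1 numbered 65 with median-of-ratios factors, 68 with TMM factors and 77 with mitochondrially encoded genes out of the total, where the span was 0.38; the largest shift of the median of all genes by a scaling was 0.05. With rows of a symbol summed, an alternative chosen after the data were seen, 69 of 81 symbols were lowest in replicate 1 and 11 departed. The members' median deviation in replicate 4, -0.01 over all animals, was -0.08 without replicate 1, 0.02 without replicate 2 and 0.01 without replicate 3. The mean log2 CPM of Rpl38, Rpl10l, Rps15al4 and an Rpl21 row moved by more than its own SD between animals under log2(CPM + 1). The planned subunit level was not run. No paired analysis was possible because the samples form a single group. Depth limits the 3 rows with under 100 reads in every animal, none of which varied beyond counting error.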
